A study of Mus musculus with 104 samples.

Results

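DNA methylation at 11 liver loci was compared between weaning and adulthood, in 11 livers measured by locus-specific bisulfite sequencing (LSBS), out of 39 LSBS livers and 104 samples in the series. The members were all livers of 2 ages, 6 taken at postnatal day 20 (P20), the age of weaning, and 5 taken at 9 wk, and every CpG measured in them, in 11 amplicons of 6 to 18 CpGs. In LSBS, DNA is treated with bisulfite, which converts unmethylated cytosines, chosen fragments are amplified, and the methylation level of a CpG is the percentage of reads that kept the cytosine. All mice were C57BL/6 (C57BL/6J in the study's methods), and no treatment is named for any of them. By the study's methods, LSBS mice were of both sexes and were pooled, since no sex difference was found at these loci. Sex was not used here. The P20 livers numbered 1 to 5 share their titles with livers of a time course by reduced representation bisulfite sequencing (RRBS), whose tissues were obtained from the supplier. P20 replicate 6 carries a title of another format that begins with numbers, as do 2 livers at E18.5, 1 at P10 and 2 at P15, and the labels do not give the cohort of these livers. The 9 wk livers, which keep their label numbers 14, 100, 101, 134 and 211, cannot be time-course mice, since that set ended at P20; neither their cohort nor their chow is stated for LSBS. Their titles say 9 wk, while the stage field of the records gives a different week for each, from 9 to 13. Age and cohort therefore cannot be told apart in this comparison. The other 28 LSBS livers were taken at E18.5, P1, P5, P10 and P15 and are used to show where the P20 values came from, in fits of all 39 livers and in a comparison of title formats.

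The methyl groups measured here are placed on CpG cytosines by the Dnmt3 enzymes, are copied to the new strand after replication by Dnmt1, and are lost either by oxidation through Tet enzymes or by dilution when cells divide without copying. At birth the rodent liver still holds blood-forming cells, and its hepatocytes go on dividing and take on adult metabolic functions up to about weaning, when milk is replaced by chow. Enhancers that become active in mature hepatocytes tend to lose methylation in this period. In whole liver, a different level within hepatocytes and a different share of other cells cannot be told apart.

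All 11 amplicons lay outside the exons and introns of protein-coding genes in mm9, and each is called here by the protein-coding gene with the nearest transcription start site (TSS), a name that says nothing about which gene, if any, it regulates. They fall into 4 groups by level. Bcl11b (chr12:109288513-109288775, 12 CpGs, 46832 bp upstream of the gene of a zinc-finger transcription factor), Kcna5 (chr6:126367813-126368087, 11 CpGs, 117623 bp downstream of the start of a potassium channel gene) and Galr1 (chr18:82197557-82197818, 6 CpGs, 378482 bp downstream of the start of a galanin receptor gene) were highly methylated at every age. Gm17671 (chr15:102230297-102230547, 8 CpGs, 2474 bp upstream of this predicted gene) was unmethylated at every age.

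Otx1 (chr11:21904651-21904911, 13 CpGs, 1881 bp upstream of this homeobox gene), Rab3a (chr8:73277154-73277422, 15 CpGs, 1290 bp upstream of the gene of a vesicle-release GTPase) and Dusp4 (chr8:35867974-35868253, 18 CpGs, 2238 bp upstream of the gene of a MAP kinase phosphatase) had means under 5% at E18.5 and were partly methylated at P20. Srp14 (chr2:118336239-118336508, 14 CpGs, 30926 bp upstream of the gene of a signal recognition particle subunit), Klf9 (chr19:23211015-23211286, 10 CpGs, 4566 bp upstream of the gene of a zinc-finger transcription factor), Rap1b (chr10:117336535-117336817, 6 CpGs, 53685 bp upstream of the gene of a small GTPase) and Kctd15 (on chr7, 11 CpGs, 12463 bp upstream of the gene of a BTB-domain protein) had lower means at P20 than at E18.5. The Kctd15 amplicon also lay within Gm12756, annotated as a processed transcript.

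The reference sequence between the primers is shown for Dusp4, the amplicon whose mean differed least, and for Otx1 and Rab3a, which were added after their values were seen because they hold CpGs near the test's limit. The sequences are the plus strand of mm9, with the CpGs of the table in capitals. They cover chr8:35867999-35868228, chr11:21904676-21904886 and chr8:73277180-73277397 in this order.
Dusp4: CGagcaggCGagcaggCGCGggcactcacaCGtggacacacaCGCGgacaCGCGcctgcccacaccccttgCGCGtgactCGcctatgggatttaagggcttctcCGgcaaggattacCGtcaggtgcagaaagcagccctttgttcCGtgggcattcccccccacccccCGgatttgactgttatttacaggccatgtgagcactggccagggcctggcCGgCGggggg
Otx1: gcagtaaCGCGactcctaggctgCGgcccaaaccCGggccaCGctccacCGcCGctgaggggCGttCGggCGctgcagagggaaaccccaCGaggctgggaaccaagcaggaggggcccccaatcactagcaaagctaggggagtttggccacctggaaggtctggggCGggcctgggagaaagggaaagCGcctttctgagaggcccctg
Rab3a: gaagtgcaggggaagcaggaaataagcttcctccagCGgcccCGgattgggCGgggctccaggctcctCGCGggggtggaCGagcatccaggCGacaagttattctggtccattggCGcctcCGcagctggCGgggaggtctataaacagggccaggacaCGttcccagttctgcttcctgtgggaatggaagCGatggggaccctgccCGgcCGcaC
CpGs were crowded at the left end of the Dusp4 and Otx1 sequences.

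Between weaning and 9 wk, no CpG and no amplicon passed the test, and the levels of the 2 ages lay close together. A call needed a Benjamini-Hochberg adjusted p no larger than 0.1 together with a difference over 5 percentage points. By limma 0 CpGs (0%) were called, and the smallest adjusted p was 0.119. The exact permutation test per CpG also called 0, with a smallest adjusted p of 0.246. Leaving out P20 replicate 3, 4, 5 or 6 gave 2, 7, 4 and 2 calls by limma, and leaving out any other liver gave 0. At an unadjusted p under 0.05, limma had 20 CpGs (16.1% of those tested), 14 higher and 6 lower at 9 wk, and the exact permutation test had 16. Of the 11 amplicons, 0 (0%) passed the two-sided exact permutation test on their means, for which the smallest adjusted p was 0.198; 1 amplicon, Rap1b, had an unadjusted p under 0.05, and limma on the amplicon means had 1, Otx1. The largest difference of an amplicon mean was 4.39 points, under the limit of 5. With the median over the CpGs of an amplicon in place of the mean, Kctd15 differed by 6.81 points and Otx1 by 6.15, with no amplicon past the test (smallest adjusted p 0.333). The median CpG differed by 2.27 points in either direction, 70 CpGs were higher and 54 lower at 9 wk, and 23 differed by over 5 points, 19 of them higher. None differed by over 10 points, the largest difference being 9.15.

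The intervals below show how large a difference between the livers may have been missed, for each CpG or amplicon taken singly. They compare weaning with adult livers, whose age and cohort cannot be told apart, and so do not bound the change with age. The 95% interval of the difference, from limma's standard error, lay within 10 points of 0 at 99 CpGs (79.8%) and within 5 points at 35. Over the 11 amplicon means, the intervals reached from -6.95 points (Srp14) to 8.72 points (Otx1). For comparison, the change of the means between E18.5 and P15 had a median of 11.9 points in either direction over the same CpGs and reached 60.8. With 6 livers against 5 the smallest two-sided exact p is 0.00216, and with 5 against 5 it is 0.00794. The reads behind each value are not given, so counting error and liver-to-liver spread are not separated. The p-values set each difference against both together, in these livers only.

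**Figure D1:**
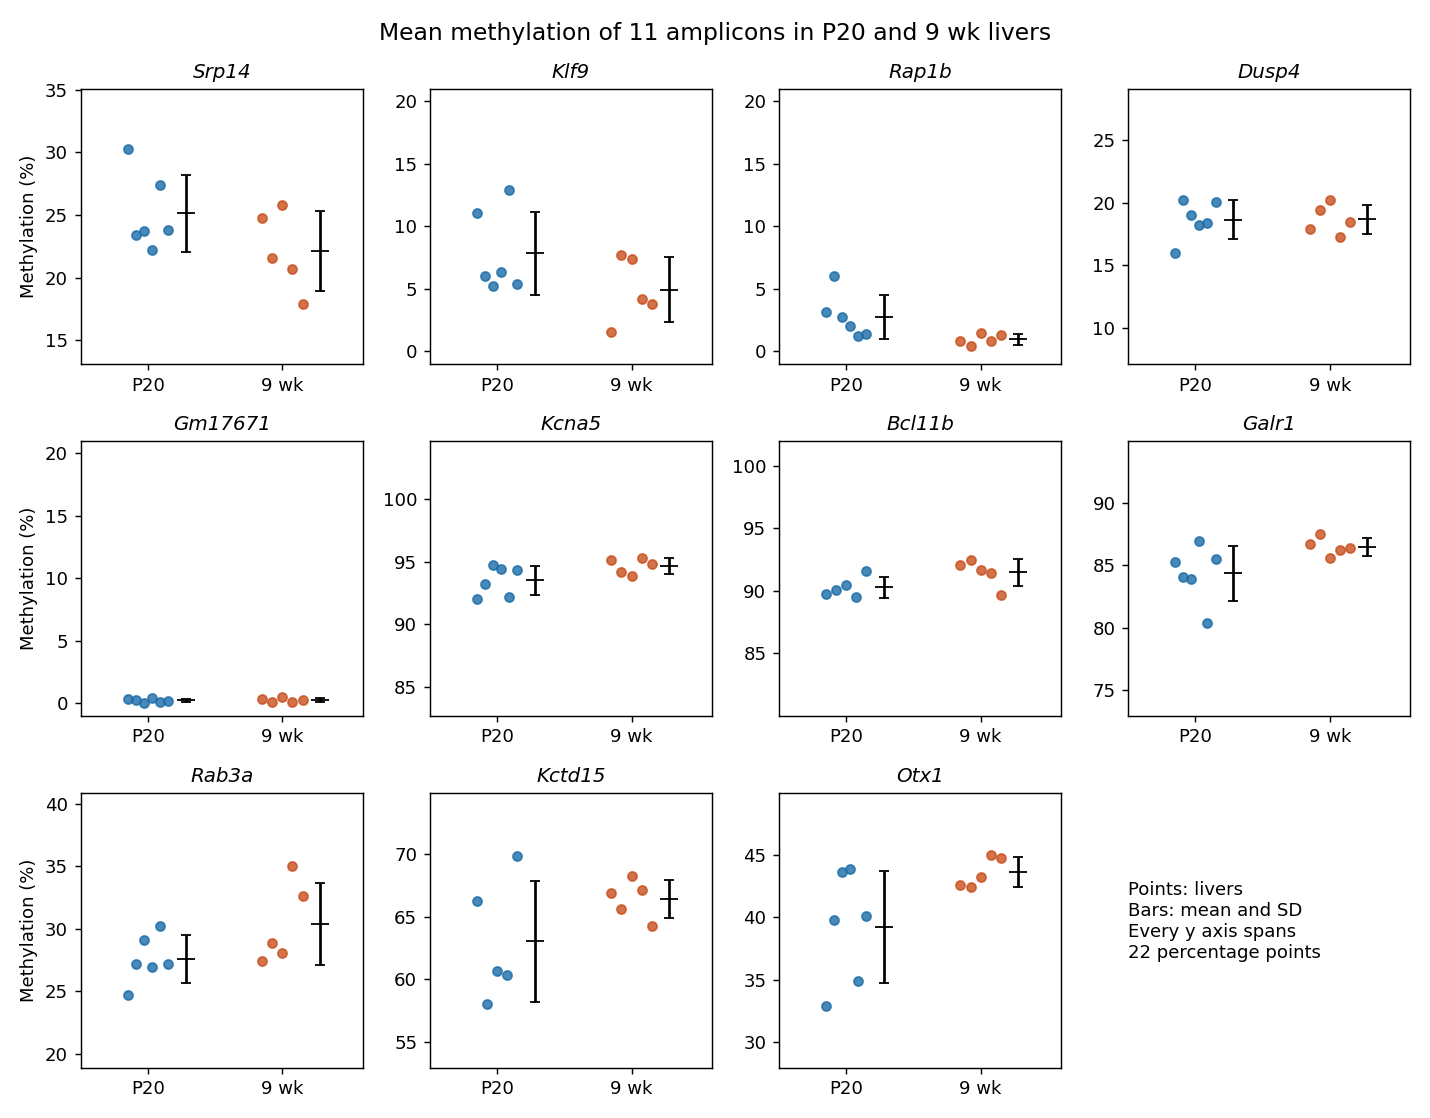
Mean methylation (%) of each amplicon in each P20 liver (blue) and each 9 wk liver (orange), with the mean and SD over livers in black; every y axis spans the same width in percentage points. The livers of the 2 ages overlap in all 11 amplicons.

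Otx1 had the largest difference of an amplicon mean, though not of the median over CpGs or in a fit of 39 livers described below. It was 39.2% ± 4.48 methylated at P20 (SD, n = 6) and 43.6% ± 1.19 at 9 wk (n = 5). Its P20 livers ran from 32.9% over a median of 40.0% to 43.9%, and the 9 wk livers had 42.5%, 42.6%, 43.2%, 44.7% and 45.0%. The adult values thus lay in a narrow band in the upper part of the P20 range and just above it, with 2 of the 5 above every P20 liver, and the lowest P20 values belonged to replicates 1 and 5. The difference of 4.39 points had a 95% interval of 0.0639 to 8.72, an exact permutation p of 0.0649 and an adjusted p of 0.198. Of its 13 CpGs, 12 were higher at 9 wk. The CpG at chr11:21904683, which gives the amplicon its name in the study's primer list, was at 44.0% ± 4.45 and 46.0% ± 4.60, and the CpG with the largest difference, at chr11:21904717, at 52.0% ± 9.05 and 59.6% ± 2.96. The 2 CpGs at the right end, at chr11:21904844 and chr11:21904866, had the highest levels of the amplicon at both ages.

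The CpG at chr11:21904844 was 1 of 2 CpGs (1.61% of those tested) at which the livers of the 2 ages did not overlap. At P20 it ran from 67.9% to 82.1%, with a median of 77.3%, and at 9 wk its values were 82.6%, 82.7%, 84.2%, 84.8% and 85.8%. The gap between the highest P20 liver and the lowest adult liver was small beside the spread of the P20 livers. Its difference was 7.39 points (95% interval 2.42 to 12.4, limma adjusted p = 0.119), and 4.27 points with all 39 livers and a term for titles that begin with numbers (limma adjusted p = 0.842). Here and below, this title term counts the adults with those livers, though the adult titles do not begin with numbers. Without P20 replicate 4 it was called at 8.48 points (limma adjusted p = 0.0819), as were the CpGs at chr11:21904717 (10.5 points) and chr11:21904866 (7.82 points). At E18.5 the same CpG had a mean of 10.1%. Neither this CpG nor the others described below at chr7:35452983, chr7:35452912, chr8:35868043, chr8:35868117 and chr8:73277231, nor the CpG at chr11:21904866, was named by the rule for named CpGs; they were chosen after their values were seen.

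Rab3a, the amplicon closest to a TSS, was 27.6% ± 1.91 at P20 (n = 6) and 30.4% ± 3.28 at 9 wk (n = 5). P20 livers ran from 24.7% to 30.2% around a median of 27.2%, and the 9 wk livers had 27.4%, 28.1%, 28.9%, 32.6% and 35.0%. Here the adults were spread more widely than the P20 livers, and 9 wk replicates 134 and 211 alone lay above the P20 range. The difference was 2.85 points (95% interval -0.458 to 6.153, exact permutation p = 0.110, adjusted p = 0.198). It was 1.69 points without 9 wk replicate 134 and 1.42 points as a median over the CpGs. Its naming CpG, at chr8:73277222, was at 8.38% ± 3.42 and 10.8% ± 3.87. The largest difference was at chr8:73277393, near the right end, with 59.1% ± 4.41 at P20 and 66.5% ± 2.85 at 9 wk, a difference of 7.48 points (limma adjusted p = 0.119) that was called without P20 replicate 5 (8.41 points, adjusted p = 0.0908). In this amplicon 11 of 15 CpGs were higher at 9 wk, and 4 had an unadjusted limma p under 0.05, all of them higher. Levels were uneven along it. The CpG at chr8:73277231 was at 48.1% and 54.4% (a difference of 6.23 points, and 3.99 with the title term), and was called without P20 replicate 4 (7.45 points, limma adjusted p = 0.0211), while its neighbour 9 bp to the left was the naming CpG with the low values above.

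The Dusp4 amplicon had the smallest difference of the mean and the largest number of CpGs with a low p. As a median over the CpGs its difference was -1.65 points, and the difference of the mean was -1.59 with the title term. Its mean was 18.7% ± 1.54 at P20 (n = 6) and 18.7% ± 1.19 at 9 wk (n = 5), a difference of 0.0111 points (95% interval -1.81 to 1.83, exact permutation p = 0.991). The P20 livers ran from 16.0% to 20.20% around a median of 18.7%, and the adult livers had 17.3%, 17.9%, 18.49%, 19.5% and 20.25%. Both ages thus covered nearly the same range. Within the amplicon, 10 CpGs were higher and 8 lower at 9 wk, with differences from -8.42 points at chr8:35868007 to 6.87 points at chr8:35868043, which lie 36 bp apart. Of its 18 CpGs, 7 had an unadjusted limma p under 0.05, 3 of them lower and 4 higher at 9 wk.

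The CpG at chr8:35868007, the second from the left in the Dusp4 sequence, was at 28.1% ± 4.56 at P20 and 19.6% ± 2.48 at 9 wk. At P20 its values ran from 21.8% to 35.7% with a median of 28.0%, and the adults had 16.2%, 18.2%, 20.0%, 21.4% and 22.3%. Only the lowest P20 liver, replicate 5, lay within the adult range. The difference of -8.42 points had a 95% interval of -13.2 to -3.64 and a limma adjusted p of 0.119. It was -8.36 points without P20 replicate 6, and the CpG was called without replicate 4 (-8.87 points, limma adjusted p = 0.0819) or replicate 5 (-9.67 points, adjusted p = 0.0521). With all 39 livers in 1 fit its limma adjusted p was 0.0190. With an added term for titles that begin with numbers, the adults counted with them, the difference was -11.3 points (limma adjusted p = 0.00179). At E18.5 this CpG had a mean of 1.42%, and at P15 a mean of 23.0%, above that of the adult. The naming CpG at chr8:35868104 was low at both ages, with 4.44% ± 2.09 and 6.30% ± 1.53, and the CpG at chr8:35868117 was at 9.30% ± 2.01 and 5.67% ± 1.26, a difference of -3.63 points that was -5.73 points and called with the same term (limma adjusted p = 0.0661).

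Kctd15, whose CpGs differed most among themselves in the difference between the ages, could not be measured in P20 replicate 1, which lacks a value at its 11 CpGs and at the 12 of Bcl11b, and its tests compare 5 livers with 5. The mean was 63.0% ± 4.86 at P20 and 66.4% ± 1.53 at 9 wk, a difference of 3.41 points (95% interval -1.37 to 8.18, exact permutation p = 0.159, adjusted p = 0.198). It was 2.16 points without P20 replicate 3 and 5.11 without replicate 6. P20 replicates 2 to 6 had 66.2%, 58.0%, 60.6%, 60.3% and 69.8%, and the adults had 64.2%, 65.6%, 66.8%, 67.1% and 68.2%. P20 replicate 2 lay within the adult range, replicate 6 above it and the other 3 below it. Leaving aside the unmethylated Gm17671, this was the only amplicon in which the P20 mean was farther from E18.5 than the adult mean. Its mean was 75.4% at E18.5, 68.8% at P15, 63.0% at P20 and 66.4% at 9 wk.

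Along Kctd15, 9 CpGs were higher and 2 lower at 9 wk, from -7.12 points at chr7:35452983 to 9.15 points at chr7:35453089. The first of these was the second CpG without overlap between the ages. Its P20 values were 40.8%, 37.2%, 39.2%, 36.2% and 40.9% in replicates 2 to 6, and its 9 wk values were 26.9%, 31.5%, 31.9%, 33.4% and 35.1%. Every adult liver was under every measured P20 liver, and the level had come down from a mean of 60.2% at E18.5. The difference had a 95% interval of -10.8 to -3.49, the smallest unadjusted limma p of the table (0.00147) and an adjusted p of 0.119; it was -6.61 points without P20 replicate 6. This CpG was called without P20 replicate 3 (-7.53 points, limma adjusted p = 0.0971), replicate 4 (-7.04, 0.0819) or replicate 5 (-7.79, 0.0521), and in no other setting that left out 1 liver. The CpG at chr7:35453089 was at 20.19% ± 7.44 and 29.3% ± 5.20. Its P20 values in replicates 2 to 6 were 20.5%, 14.0%, 17.9%, 15.9% and 32.8%, so that replicate 6 was within the adult range of 22.01% to 36.2% and the other P20 livers were below it. Without replicate 6 its difference was 12.3 points, with a limma adjusted p of 0.0934. The naming CpG at chr7:35453076 was at 39.7% ± 9.56 and 43.3% ± 5.10, against 77.3% at E18.5.

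**Figure D2:**
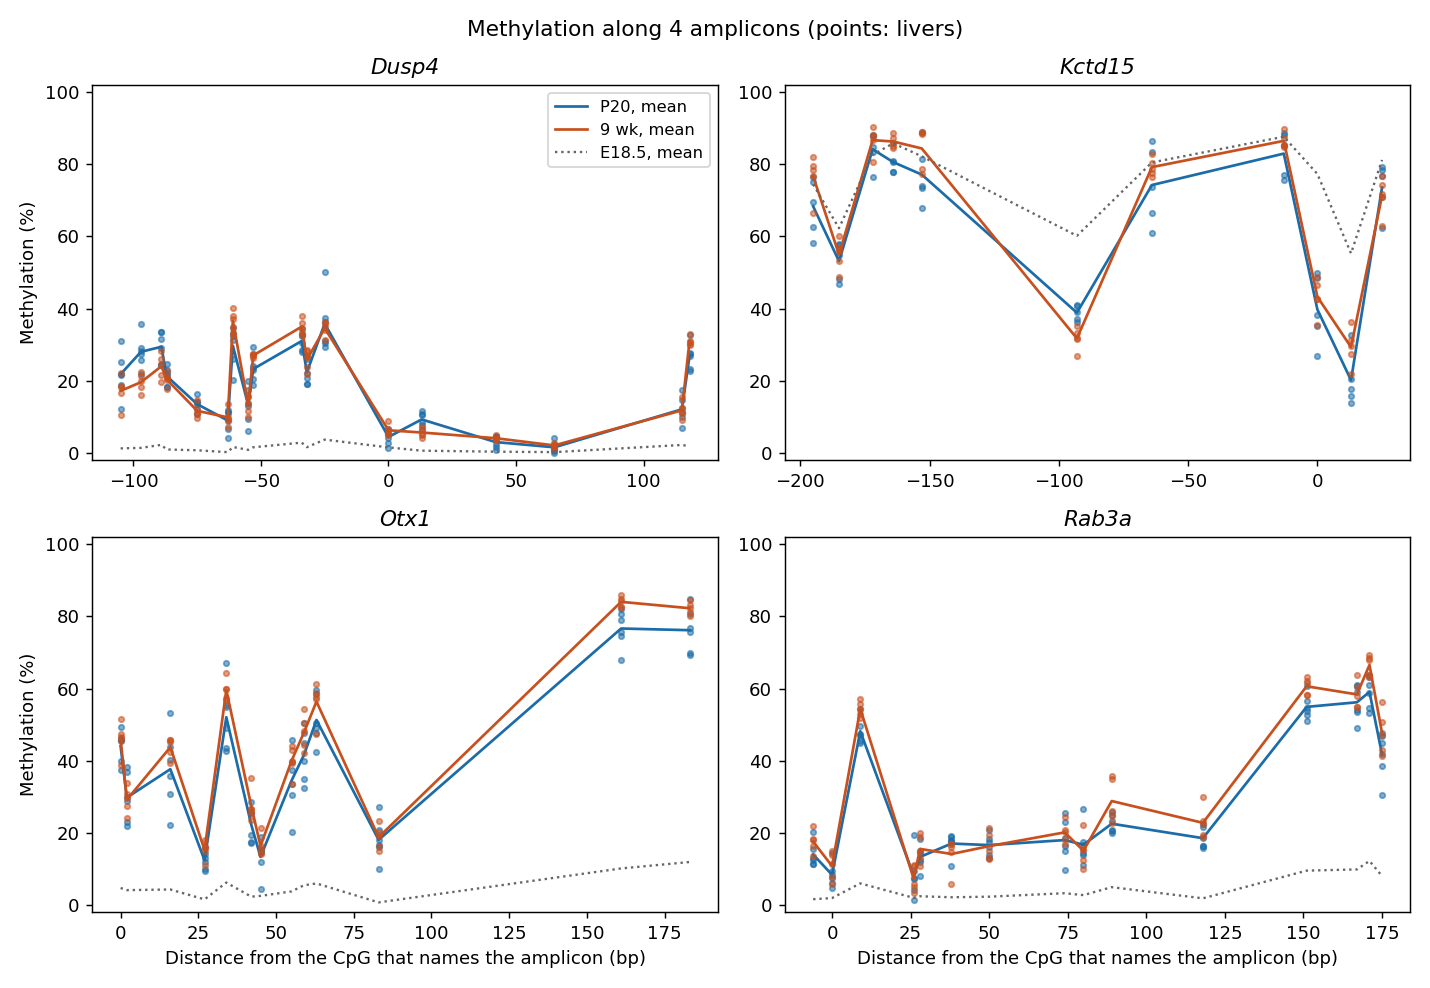
Methylation (%) against the distance in bp from the naming CpG for Dusp4, Kctd15, Otx1 and Rab3a, with P20 livers in blue, 9 wk livers in orange, lines through the means of each age and the E18.5 mean dotted. The P20 and 9 wk lines run close to each other in all 4 amplicons, and in Dusp4 the adult line is below the P20 line at the left end and above it at a distance of -61 bp.

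At 3 of the 4 loci with lower means at P20 than at E18.5, Srp14, Klf9 and Rap1b, the adult means were lower still by small amounts, while Kctd15 had the higher adult mean given above. Srp14, which went from 66.6% at E18.5 to 27.7% at P15, was 25.1% ± 3.07 at P20 (n = 6) and 22.1% ± 3.21 at 9 wk (n = 5). Its P20 livers ran from 22.2% to 30.3% with a median of 23.8%, and the adults had 17.9%, 20.7%, 21.6%, 24.8% and 25.8%. The adults were spread across the lower part of the P20 range and under it. The difference was -2.99 points (95% interval -6.95 to 0.967, exact permutation p = 0.152, adjusted p = 0.198), and all 14 CpGs were lower at 9 wk, with differences from -4.72 to -1.67 points, none of them with an unadjusted limma p under 0.05. Without P20 replicate 1 the difference of the mean was -1.96 points, and without 9 wk replicate 211 it was -1.93. The naming CpG at chr2:118336266 was at 26.8% ± 4.83 and 24.1% ± 3.66, and the CpG that differed most, at chr2:118336446, at 31.2% ± 4.70 and 26.5% ± 2.68. CpGs of 1 amplicon are read on the same molecules, so that their shared direction counts as 1 observation per liver.

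Klf9 was 7.84% ± 3.30 at P20 and 4.93% ± 2.59 at 9 wk, a difference of -2.91 points (95% interval -6.71 to 0.895, exact permutation p = 0.162, adjusted p = 0.198). Without P20 replicate 5 it was -1.89 points. At P20 the livers fell into 4 values between 5.25% and 6.38% and 2 of 11.1% and 12.9%, those of replicates 1 and 5. The adult livers had 1.56%, 3.81%, 4.20%, 7.35% and 7.74%, which span the lower P20 values. All 10 CpGs were lower at 9 wk, most at chr19:23211180 with 10.9% ± 4.10 and 5.77% ± 3.20 (a difference of -5.12 points, and -2.07 with the title term), while the naming CpG at chr19:23211118 was at 6.71% ± 4.06 and 5.37% ± 2.97. Rap1b, already low at E18.5 with 7.27%, was 2.76% ± 1.79 at P20 and 0.982% ± 0.437 at 9 wk. Its difference of -1.78 points had a 95% interval of -3.56 to 0.00593, an exact permutation p of 0.0325 and an adjusted p of 0.198. Without P20 replicate 2 it was -1.11 points. The P20 livers ran from 1.22% to 6.07% and the adults from 0.414% to 1.49%, so that replicates 5 and 6 of P20 were within the adult range. Its naming CpG at chr10:117336769, also the one that differed most, was at 3.91% ± 2.77 and 0.977% ± 0.964.

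The highly methylated amplicons were 1.15 to 2.12 points higher at 9 wk. Galr1 was 84.4% ± 2.22 at P20 (n = 6) and 86.5% ± 0.716 at 9 wk (n = 5), with P20 values from 80.4% to 87.0% and adult values from 85.6% to 87.5% (95% interval of the difference -0.0937 to 4.34, exact permutation p = 0.0519, adjusted p = 0.198). Without P20 replicate 5 the difference was 1.34 points, and without replicate 4 it was 2.64 with an adjusted p of 0.0873 (exact permutation test). Bcl11b, in 5 livers of each age, was 90.3% ± 0.806 and 91.5% ± 1.08 (interval -0.177 to 2.58), and Kcna5 was 93.5% ± 1.19 and 94.7% ± 0.617 (interval -0.175 to 2.49). The ranges of the ages overlapped in all 3. Their naming CpGs were at 93.2% and 95.5% (chr18:82197710), 96.1% and 94.6% (chr12:109288646), and 97.0% and 97.8% (chr6:126368042) at P20 and 9 wk. Their CpGs with the largest differences were at 90.3% and 94.98% (chr18:82197699), 89.2% and 93.1% (chr12:109288586), and 90.8% and 96.7% (chr6:126367987). The naming CpG of Bcl11b was lower in the adult, against 10 of the 12 CpGs of that amplicon.

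Gm17671 was the unmethylated locus of the set, with 0.238% ± 0.141 at P20 and 0.259% ± 0.186 at 9 wk. Its interval of -0.535 to 0.578 points was the narrowest of the 11. No liver of either age had a mean over 0.538%, and E18.5 had 0.295%. Its naming CpG, at chr15:102230520, was at 0.176% and 0.634%, and the CpG with the largest difference, at chr15:102230360, at 0.613% and 0.0692%.

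**Figure D3:**
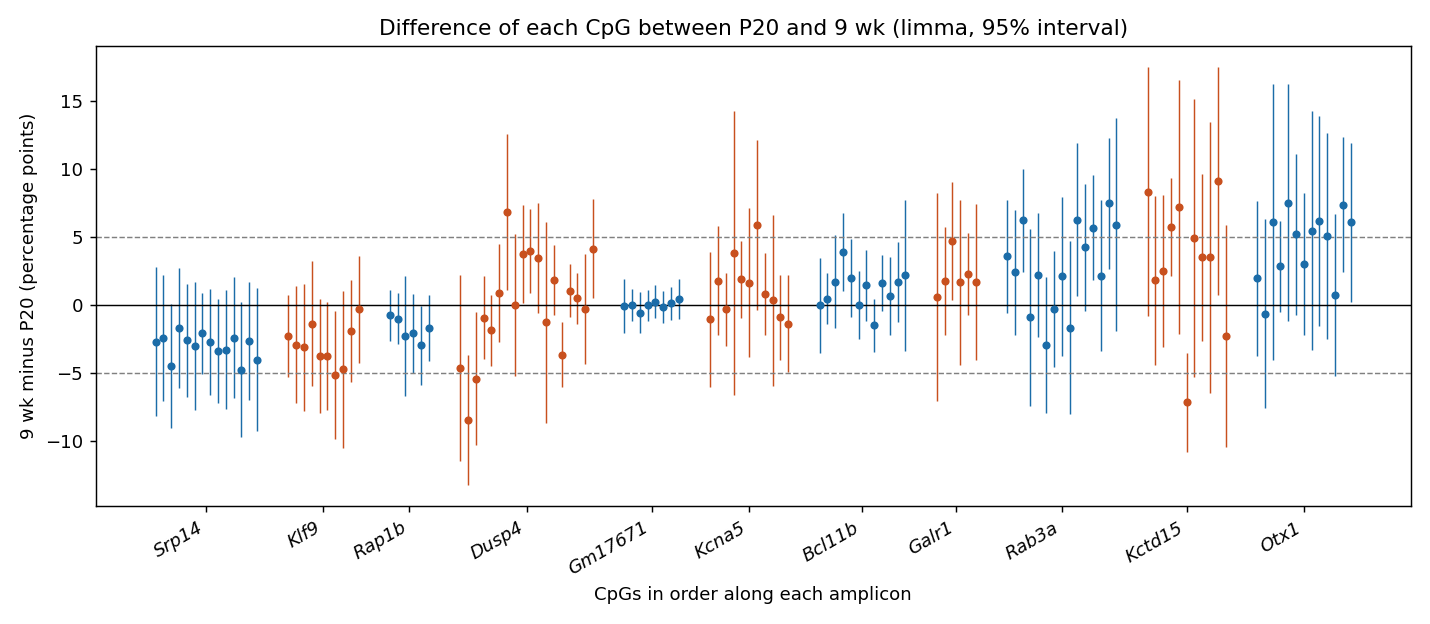
Difference between 9 wk and P20 in percentage points for each CpG, in order along each amplicon, with the 95% interval from limma; dashed lines mark 5 points and colours alternate between amplicons. Srp14, Klf9 and Rap1b lie below 0 throughout, Galr1 above it, and Dusp4 and Kctd15 hold CpGs on both sides.

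Set beside the earlier ages, most of the distance between E18.5 and 9 wk had been covered by weaning. Of the mean change from E18.5 to 9 wk, P20 had reached 88.7% in Otx1, 88.9% in Rab3a, 99.9% in Dusp4, 93.3% in Srp14, 86.2% in Klf9, 71.7% in Rap1b, 87.8% in Bcl11b, 85.5% in Galr1 and 90.5% in Kcna5. For Kctd15 the figure was 138%, since P20 lay beyond the adult value, and for Gm17671 there was no change to divide by. The difference between P20 and 9 wk had the sign of the change between E18.5 and P15 in 10 of the 11 amplicons, the exception being Kctd15, and in 8 of 11 both with the title term, which turned Dusp4 and Gm17671, and with medians over CpGs, which turned Dusp4 and Kcna5. The step between, from P15 to P20, went the other way in Bcl11b (-0.377 points), Galr1 (-0.289), Kcna5 (-1.17) and Gm17671 (-0.107), so that these did not move steadily. At P10, Kcna5 was already at 95.7%, above its 94.7% at 9 wk. Bcl11b was at 91.3% at P10 against 91.5% at 9 wk, and Galr1 at 85.9% against 86.5%. This is a description of means with no test, and in Gm17671 and Dusp4 the later difference was under 0.1 points.

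At single CpGs the same comparison used ages that share no liver with P20 or 9 wk. Between E18.5 and P15, 71 CpGs went up and 30 went down by over 5 points on the means. Of the 71, 52 were higher at 9 wk than at P20, with a median difference of 1.82 points, and of the 30, 27 were lower, with a median of -2.67 points. Together 79 of 101 (78.2%) had the sign of the earlier change. The step from P15 to P20 lies between and is not part of this count. Of the 22 exceptions, 8 lay in Dusp4 (of its 15 CpGs counted here), 4 in Kcna5, 4 in Rab3a, 3 in Kctd15 (of 5), 2 in Bcl11b and 1 in Otx1, and those outside Dusp4 and Kctd15 differed by at most 2.90 points. The CpGs of an amplicon are not independent of each other. Over all CpGs, Pearson's r between the earlier change and the later difference was 0.577 and Spearman's rho was 0.576, across CpGs that share livers and molecules. The level at P20 and at 9 wk had a Pearson's r of 0.996 over the same CpGs, against 0.730 for E18.5 and 9 wk.

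**Figure D4:**
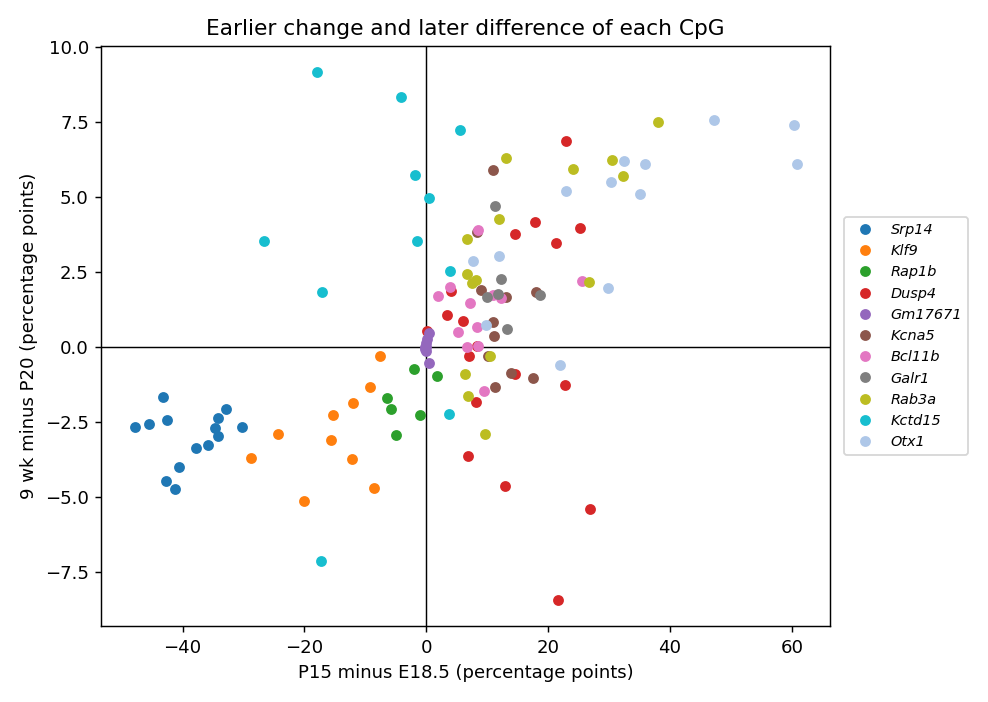
For each CpG, the change of the mean between E18.5 and P15 on the x axis and the difference between P20 and 9 wk on the y axis, both in percentage points, coloured by amplicon. Srp14 and Klf9 lie at the lower left and Otx1 and Rab3a mostly at the upper right, while most Kctd15 and some Dusp4 CpGs lie in the other quadrants.

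**Figure D5:**
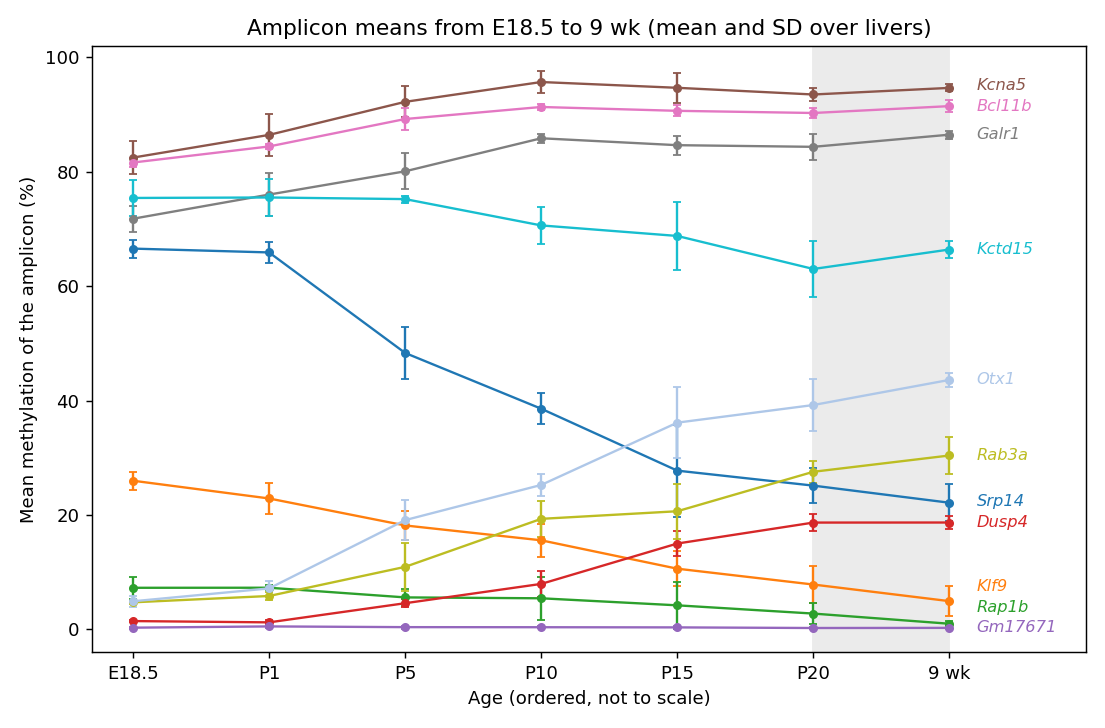
Mean methylation (%) of the 11 amplicons at each age, with the SD over livers (4 to 6 livers a point); the interval from P20 to 9 wk is shaded and the ages are not to scale. The lines of Srp14, Klf9, Otx1, Rab3a and Dusp4 change most between P1 and P15, and all 11 are close to level in the shaded interval.

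Pairs of a P20 and a 9 wk liver differed by an amount between those of P20 pairs and of 9 wk pairs. Such distances include the spread of single livers, unlike the difference of the age means. The mean absolute difference over CpGs between 2 livers had a median of 5.07 points among the 15 pairs of P20 livers, 3.20 points among the 10 pairs of 9 wk livers and 4.21 points among the 30 pairs of a P20 and a 9 wk liver, with pairs of P20 replicate 1 measured at fewer CpGs. The P20 values were the more variable, with a larger SD than the adults at 98 CpGs (79.0%, median SD 3.47 against 2.51 points) and in 7 of 11 amplicons. These CpGs share livers and molecules. The reads behind each value are not given, and the part of counting error in this spread was not tested. No 2 livers had equal values beyond those at 0% or 100%. At the 60 CpGs that went up before P15 and have a value in all 11 livers, the P20 livers had means of 43.4%, 46.9%, 48.0%, 47.6%, 45.4% and 47.1% in replicates 1 to 6, and the adults ranged from 47.3% to 49.6%. At the 26 that went down, the P20 livers had 20.9%, 15.4%, 15.03%, 14.4%, 19.9% and 15.1%, and the adults ranged from 11.2% to 16.8%. In both sets P20 replicates 1 and 5 lay farthest from the adults, on the side of the younger ages.

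P20 replicate 6, the liver with a title that begins with numbers, was the P20 liver closest to the adults. Its mean distance was 2.92 points to the 9 wk livers and 3.93 points to the other P20 livers, and it was also the closest to those (4.21 to 5.52 points for the others). Its amplicon mean was the nearest to the adult mean in 1 of 11 amplicons, against 3 each for replicates 3 and 5. Replicates 1 and 5 were the farthest from the adults, at 5.84 and 5.79 points. Distances of replicate 1 rest on 101 CpGs, without Kctd15 and Bcl11b, and are not ranked against that of replicate 5. Set against the other P20 livers, replicate 6 differed in the direction of the adult difference in 9 of 11 amplicons, by 8.52 points in Kctd15, and lay within their range in 9 of 11. In the same comparison of title formats, the counts in the direction of the adult difference were 8 of 11 at E18.5, 6 at P10 and 6 at P15. Without replicate 6, 2 CpGs were called, at chr7:35452912 (7.03 points, limma adjusted p = 0.0388, against 5.72 points with all livers of the 2 ages and 2.41 points, adjusted p = 0.890, with the term for titles) and chr7:35453089, both higher at 9 wk. In a limma fit of the amplicon means of all 39 livers with a term for such titles, the adults counted with them, the difference came down to 2.38 points in Otx1, 1.46 in Kctd15, 0.967 in Rab3a and -0.948 in Rap1b, and turned to -1.59 in Dusp4. It was -2.76 in Srp14, -2.64 in Klf9, 1.94 in Galr1, 1.36 in Kcna5 and 0.890 in Bcl11b (smallest adjusted p over the 11 amplicons 0.677). The part of cohort in the age difference cannot be told apart from age, since no adult liver came from the time-course mice, and the cohort of replicate 6 is not known.

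RRBS, in which fragments cut by a restriction enzyme are sequenced, measured some of the same CpGs, on either strand, in 4 amplicons and in 4 or 5 P20 livers that carry the titles of replicates 1 to 5. Means differed from LSBS by 2.29 points over 4 CpGs in Rap1b, -1.72 over 3 in Galr1 and -5.18 at 1 in Klf9. In Rab3a, 3 CpGs had 16.3% to 19.2% in RRBS and 41.7% to 59.1% in LSBS, with single RRBS libraries from 0% to 46.7%. The RRBS values rest on as few as 10 reads, and the cause of this gap was not tested. At P20 the naming CpG of Rap1b was at 16.9% in RRBS of heart, 21.6% in muscle and 5.84% in liver (n = 4 each), and its neighbour 10 bp to the right at 21.1%, 7.06% and 7.90%, so that muscle was above liver at the first CpG and not at the second. The Klf9 CpG at chr19:23211054 was at 4.77% in heart (n = 2), 1.62% in muscle and 2.01% in liver (n = 4 each). No test was made of these tissues. RRBS of heart gave 80.0% over 2 CpGs of Galr1 with no RRBS liver value used here, where LSBS livers had 82.5%. No RRBS libraries of adult liver were used here.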

How the data were processed

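Liver LSBS values of 6 P20 and 5 9 wk mice were taken from the table the authors deposited, which holds methylation fractions (the share of a CpG's reads that were methylated), here multiplied by 100. The authors aligned reads to mm9 with Bismark and kept CpGs with at least 100 reads, and RRBS CpGs with at least 10. The submitters' processing notes name Bismark 0.7.6, Bowtie2, mm9 and mm10. Tables on mm10 and 13 columns of the tables used that match no sample were not used here.

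Every position was checked to be a CpG cytosine of mm9 (NCBIM37, GENCODE annotation), and each primer pair matched the bisulfite-converted sequence of its locus once. CpGs with 2 or more values at both ages were compared with limma 3.58.1 in R 4.3.3 (lmFit, eBayes) without covariates, with Benjamini-Hochberg adjustment over all CpGs, and called where the adjusted p was 0.1 or less and the difference over 5 percentage points. Amplicon means, over CpGs with a value in every liver that had the amplicon, were compared by two-sided exact permutation tests adjusted over 11 amplicons. P20 replicate 1 has no value at 23 CpGs, so 2 amplicons were tested without it, where the design had asked for a value in all 11 livers. Intervals come from limma. The tests were checked on simulated data. The sequence of the Kctd15 amplicon is not reported here. Permutation tests enumerated every regrouping in Python 3.11.15 (numpy 2.4.6), interval limits used scipy 1.17.1, and plots matplotlib 3.10.9.

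Named in each amplicon were 2 CpGs: the CpG within 1 bp of the position in its name, and the CpG with the largest difference. Members, lists and tests were chosen with earlier results of these data known. Alternatives covered the test, scale (logit, offset 0.01), limits, livers in the fit, missing values and each liver left out. The depth per sample and CpG is unknown, so no counting interval is given.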

Additional observations from a re-analysis of the deposited data

Results flagged for a closer look

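Of 64 groups of values (11 amplicon means and 21 named CpGs at 2 ages), 3 held a liver far from the rest by Dixon's test, and chance gives about 1 in 20. All 3 were CpGs of the unmethylated Gm17671 amplicon and none was an amplicon mean. The CpG at chr15:102230360 was at 2.67% in P20 replicate 1, against 0% to 0.746% in the other 5 P20 livers. The CpG at chr15:102230520 was at 0.833% in P20 replicate 5, against 0% to 0.224% in the others, and at 2.46% in 9 wk replicate 14, against 0% to 0.287% in the other 4 adults.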

How the results depend on the processing

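The 0 CpGs called stayed 0 with an unmoderated linear model, exact permutation tests, the logit scale, no limit on the difference, a limit of 10 points, an adjusted p of at most 0.05, only CpGs with a value in all 11 livers, and without CpGs under 10%. All 39 livers in 1 fit called 1 CpG, and 2 were called with an added term for number-first titles, all of them in Dusp4. That term counted the adults with the number-first livers, though their titles do not begin with numbers. Leaving out 1 liver gave 0 to 7 calls: 2 without P20 replicate 3, 7 without replicate 4, 4 without replicate 5, 2 without replicate 6, and 0 without any other liver. No CpG was called in more than 3 of these 11 settings. The count of amplicons was 0 under every alternative run, the leave-one-out settings included, which ran from 0 to 0. Here too, no limit on the difference and an adjusted p of at most 0.05 could add none. The smallest adjusted p of the exact permutation test was 0.198. The share of CpGs with the sign of the earlier change was 75.2% with classes from P1 to P15 and 80.3% with a limit of 10 points.

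Some small differences reversed. Gm17671 was -0.0110 points with the title term and -0.0484 to 0.0701 over the livers left out in turn. Dusp4 was -1.65 points as a median over CpGs, -1.59 with the title term and -0.522 to 0.359 with a liver left out. Kcna5 was -0.590 as a median, and its naming CpG was -0.244 with the title term and -0.118 (without P20 replicate 2) to 1.44 with a liver left out. The naming CpG of Otx1 was -1.41 with the title term, against 1.98 points in the main comparison. The causes were not tested. No paired analysis was possible because the P20 and 9 wk livers share no replicate number. The 6 and 5 livers, the missing depth per CpG, sex, which was not used, and the cohort limit the comparison.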
